A study of Mus musculus with 16 samples.

Results

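The genes described here are 40 genes of DNA replication and homologous recombination, listed by symbol for what their products do, with earlier results of these libraries known, the rise of Brca2 among them. All 40 were among the 23224 genes of the deposited estimated counts and all 40 passed the filter on low counts that left 16084 genes for testing. By role they comprised 13 genes of origin licensing and the replicative helicase, 11 genes of the sliding clamp, the DNA polymerases and lagging-strand synthesis, 3 genes of deoxynucleotide supply, 10 genes of homologous recombination and 3 genes of the Fanconi anaemia pathway. The question was whether the higher Brca2 RNA seen after MK801 was shared by other genes of repair or replication. That Brca2 difference was already known from these libraries, so its own values are a description and support nothing further.

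The 16 libraries hold polyA RNA of pancreatic neuroendocrine tumours that arose in RIP1Tag2 mice. These mice carry the SV40 T antigens under a rat insulin promoter, so the oncogene is driven in insulin-producing beta cells and every group shares it. The B6 control group (7 libraries) came from mice on the C57Bl/6 background that were untreated or had received normal saline for 3 days. The B6 MK801 group (5 libraries) came from mice on the same background given MK801 at 1 mg/kg by intraperitoneal injection daily for 3 days; MK801 (dizocilpine) blocks the channel of the NMDA-type glutamate receptor. The C3H control group (4 libraries) came from mice on the C3H background, untreated or given saline. All mice were 14 to 16 weeks old, the end stage of this model. The labels do not say which controls received saline, nor whether each library came from a different mouse. The p-values therefore rest on how these libraries vary, which may be partly technical. Both comparisons use the same B6 controls. Each library held 38561334 to 57013815 estimated counts. Dlgap1, which encodes the scaffold protein GKAP and is the gene the study is about, ranged from 23.8 to 38.2 CPM (read counts scaled by library size to the same total) in B6 controls, from 24.7 to 39.8 in B6 MK801 and from 0.203 to 0.967 in C3H controls, so the strain labels separate on it. The summed level of 14 beta cell markers, among them the insulin genes, ranged from 34678 to 142445 CPM over the 16 libraries, and none of the 14 was at 0 in all libraries of any group.

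Before S phase, the origin recognition complex, Cdc6 and Cdt1 load the MCM helicase onto origins; Cdc45 and the GINS complex then complete the active helicase, and the clamp Pcna, loaded by replication factor C, holds the polymerases on the template. Homologous recombination repairs breaks and collapsed forks by copying an intact sister: Brca1 with its partner Bard1 promotes the resection of broken ends, Palb2 joins Brca1 to Brca2, and Brca2 prepares the resected single-stranded DNA for strand exchange. Most of these genes are transcribed as cells enter S phase under E2F factors, which the retinoblastoma protein holds in check and which T antigen releases by binding that protein.

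The stretches before the start sites of several of these genes are shown because E2F motifs are a known feature of the promoters of replication genes. They are 250 bases long, end at the base before the annotated start, are written 5′ to 3′ on the gene's own strand and were taken from RefSeq on GRCm38.p6, which is not the build named for the counts. Capitals mark an E2F motif, searched on both strands as TTTCGCGC, TTTGGCGC, TTTCCCGC or TTTGGCGG. Brca2 lies at chr5:150522371-150522620 (plus strand), Bard1 at chr1:71102973-71103222 (minus strand), Mcm5 at chr8:75109259-75109508 (plus strand) and Brca1 at chr11:101551956-101552205 (minus strand).
Brca2: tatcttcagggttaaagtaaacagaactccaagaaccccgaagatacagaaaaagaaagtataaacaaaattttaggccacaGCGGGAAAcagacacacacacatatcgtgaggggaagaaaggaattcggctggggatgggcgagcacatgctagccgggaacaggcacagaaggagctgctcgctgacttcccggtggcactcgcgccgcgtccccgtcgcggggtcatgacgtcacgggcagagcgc
Bard1: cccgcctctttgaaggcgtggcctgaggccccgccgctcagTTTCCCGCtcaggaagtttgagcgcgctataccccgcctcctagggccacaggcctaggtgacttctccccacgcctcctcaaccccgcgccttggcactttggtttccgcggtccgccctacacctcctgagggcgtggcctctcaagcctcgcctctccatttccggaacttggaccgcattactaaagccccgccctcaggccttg
Mcm5: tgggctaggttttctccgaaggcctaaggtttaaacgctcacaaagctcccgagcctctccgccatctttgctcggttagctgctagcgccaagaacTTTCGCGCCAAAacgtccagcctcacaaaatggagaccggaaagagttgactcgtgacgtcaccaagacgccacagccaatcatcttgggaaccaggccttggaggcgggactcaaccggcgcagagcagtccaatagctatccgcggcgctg
Brca1: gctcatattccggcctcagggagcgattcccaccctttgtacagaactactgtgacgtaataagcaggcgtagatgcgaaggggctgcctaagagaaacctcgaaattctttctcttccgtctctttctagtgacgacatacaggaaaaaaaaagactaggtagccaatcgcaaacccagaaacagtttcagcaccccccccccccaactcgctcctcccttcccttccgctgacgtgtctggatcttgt
The motif of Brca2 is TTTCCCGC read on the opposite strand and begins 168 bases before the start. Bard1 holds the same letters on its own strand, 209 bases before the start. Mcm5 holds an overlapping pair, TTTCGCGC on its own strand 153 bases before the start and TTTGGCGC on the opposite strand, and the Brca1 window holds none of the 4 spellings.

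Promoter windows were given for 32 of the 40 genes, and 9 of them (28.1%) held an E2F motif: Bard1, Brca2, Cdc6, Mcm5, Mcm6, Mcm7, Orc1, Pola1 and Rfc3. Of all 27025 genes with a window of that length, 610 (2.26%) held the motif, as did 429 of the 11264 among the genes tested (3.81%). A CCAAT box (CCAAT on either strand) was in 19 of the 32 (59.4%) and of all genes in 37.5%; the cell cycle homology region motif TTTGAA was in 4 (12.5%) and in 18.3%. These are matches of letters, not sites of binding. After MK801 the log2 fold changes of the 8 genes with a match other than Brca2, described further on, ran from -0.19 (Mcm6) to 0.17 (Rfc3).

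Brca2 was higher in the MK801 group, at 115 ± 37.7 CPM (SD, n = 5) against 55.0 ± 11.5 in B6 controls (SD, n = 7). The 5 MK801 libraries held 92.3, 161, 141, 66.8 and 112 CPM. The 7 B6 controls held 54.0, 49.3, 65.6, 59.0, 32.3, 64.5 and 60.4 CPM, and the 4 C3H controls 29.7, 51.5, 41.9 and 37.6 CPM. Every MK801 library lay above every control of either strain, although the lowest, at 66.8 CPM, was just over the highest B6 control. The log2 fold change against B6 controls was 1.06 (SE 0.216, 95% interval 0.60 to 1.52) with an adjusted p of 0.0393 by edgeR's quasi-likelihood test with Benjamini-Hochberg adjustment over all genes. Of all genes tested, 0.149% were called higher in this comparison, 0.473% lower and 0.622% in either direction, and 0.274% had every MK801 library above every B6 control. The call sat close to the threshold of 0.05: it was lost in 9 of the 16 fits that each left out 1 library (those without B6 control 1, 2, 3, 4 or 7, C3H control 4, or MK801 library 2, 3 or 4), where the adjusted p reached 0.125 and the log2 fold change ranged from 0.91 to 1.15.

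**Figure D1:**
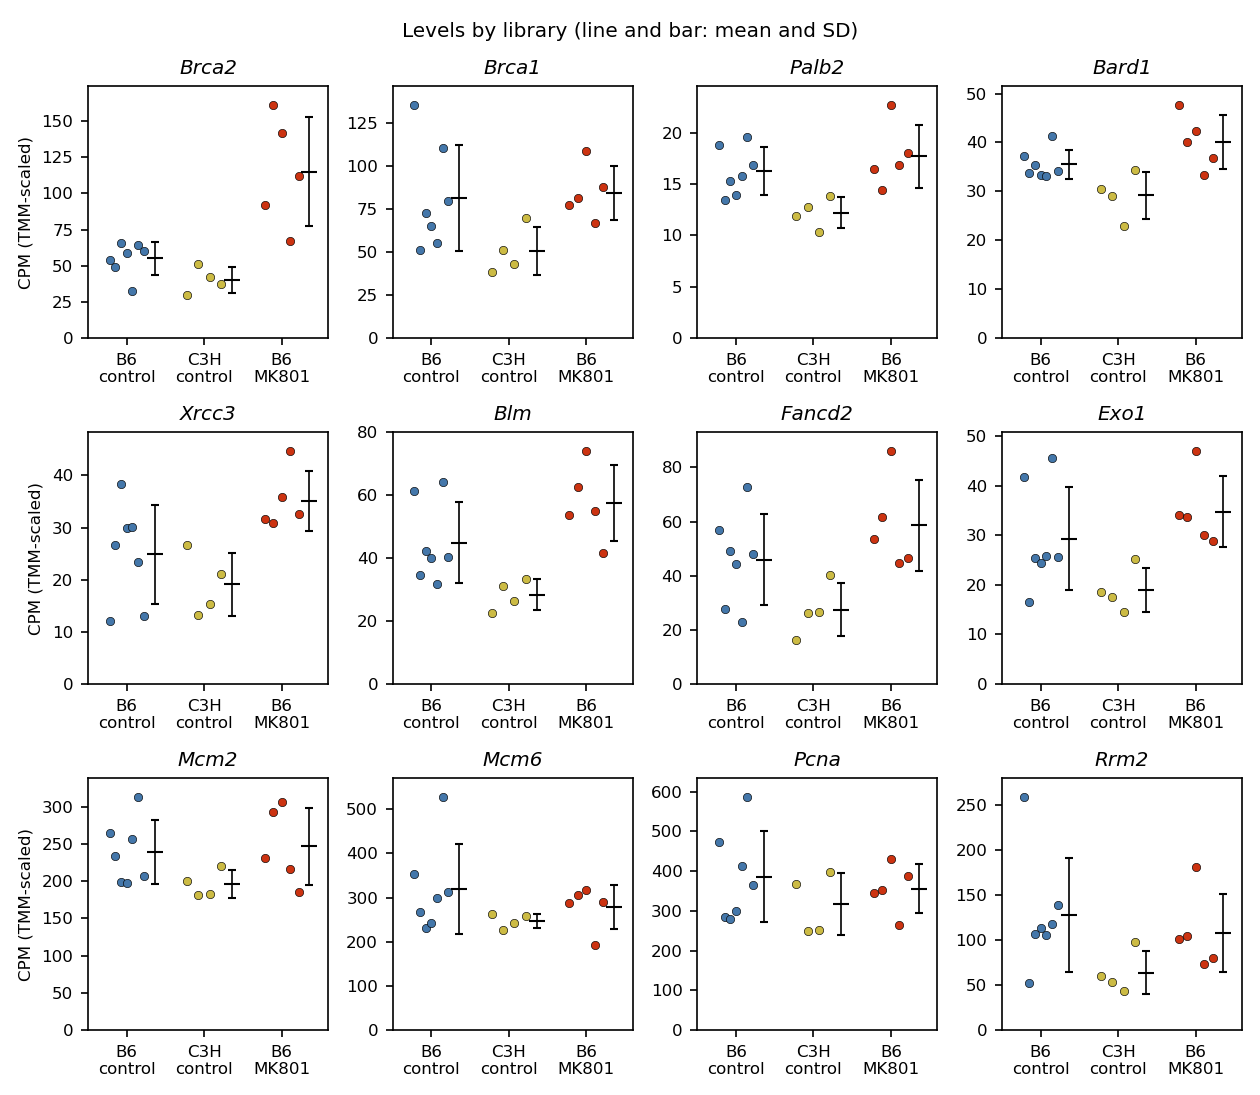
CPM of 12 genes in each library (points) of the 3 groups, with the group mean and SD as a line and bar; each panel has its own linear axis from 0. For Brca2 all 5 MK801 points lie above all 7 B6 control points, while in the other 11 panels these groups overlap.

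None of the other 39 genes was called higher or lower after MK801. None had an unadjusted p under 0.05 either, a level that 12% of all genes tested reached in this comparison and 3.5% reached with a higher value; limma-voom, DESeq2's Wald test and the other tools tried also called none of them. Their log2 fold changes ran from -0.39 (Pold1) to 0.50 (Xrcc3), and all 39 intervals held 0. The intervals bound what a shared rise could have been: for 38 of the 39 the upper 95% limit lay below the Brca2 estimate of 1.06, with Xrcc3 at 1.07 the exception, and for 37 it lay below 1, a doubling, with Cdt1 and Xrcc3 the exceptions. The Brca2 estimate comes from libraries in which its rise was already known, whereas a doubling is a yardstick free of that. The median over all 40 was 0.05, beside -0.03 over all genes tested.

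**Figure D2:**
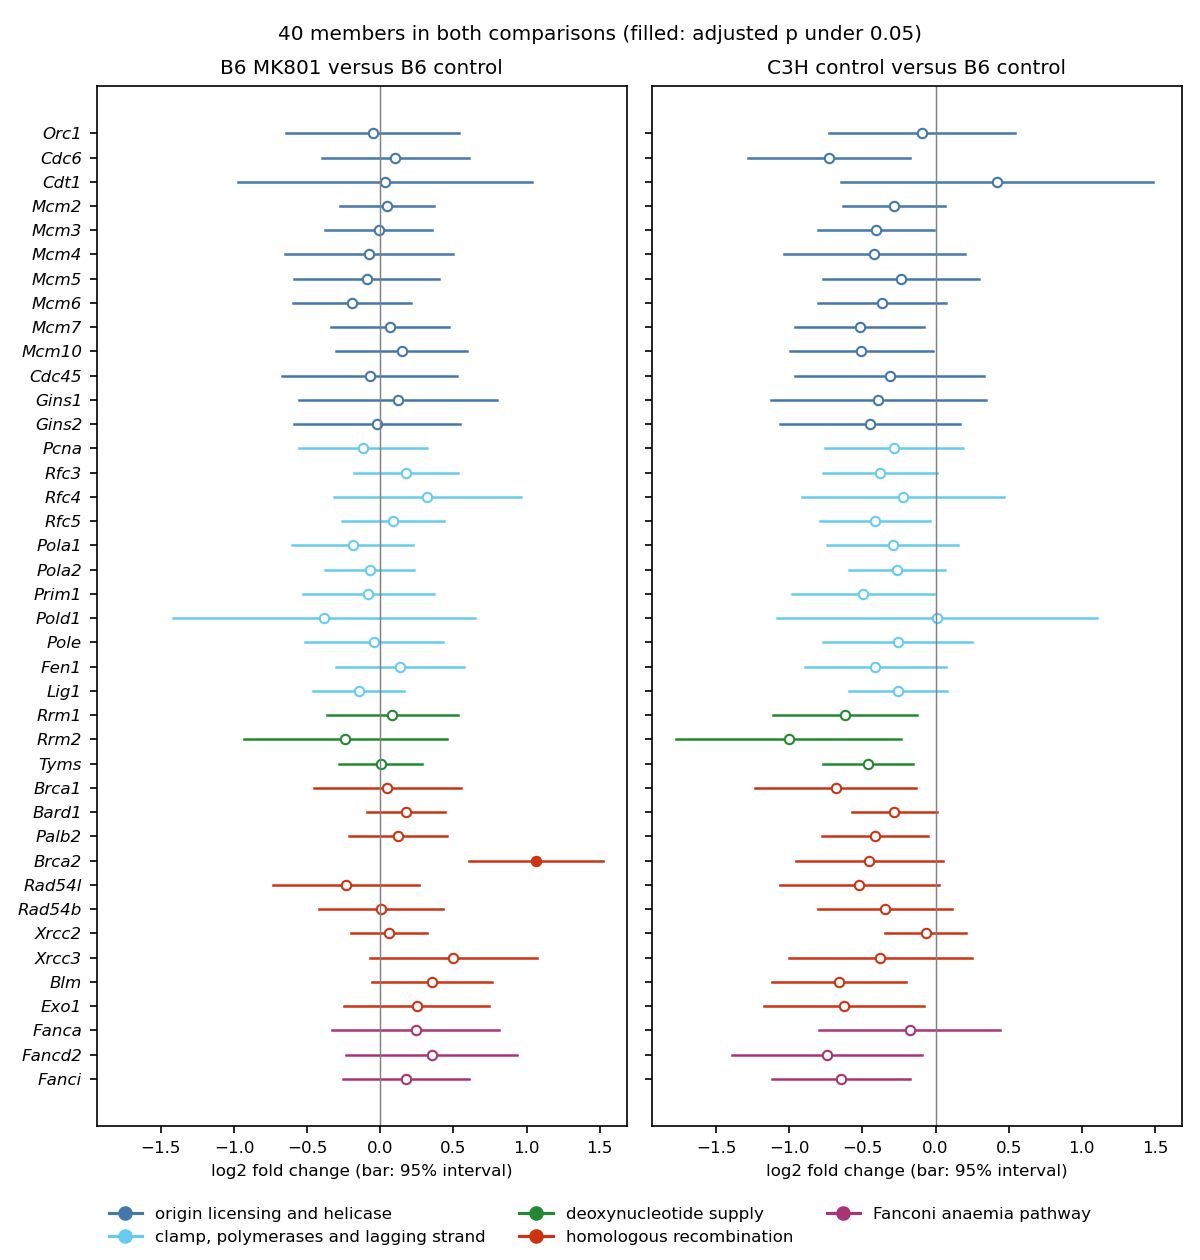
Log2 fold change of each of the 40 genes with its 95% interval, for B6 MK801 against B6 control and for C3H control against B6 control. After MK801 the Brca2 interval (0.60 to 1.52) alone lies clear of 0; in C3H 38 of 40 points lie below 0.

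Brca1, Palb2 and Bard1, which act with or upstream of Brca2, did not pass the test. Brca1, the ubiquitin ligase that acts upstream of Brca2, held 77.3, 81.2, 109, 66.7 and 87.6 CPM in the MK801 libraries, inside the B6 control range of 51.3 to 136 with a median of 72.7. Its log2 fold change was 0.05 (95% interval -0.45 to 0.55). Palb2, which bridges Brca1 and Brca2, held 16.5, 14.4, 22.8, 16.8 and 18.1 CPM after MK801 against 13.5 to 19.6 with a median of 15.8, a log2 fold change of 0.12 (95% interval -0.21 to 0.46). Bard1, the partner of Brca1, held 47.7, 40.1, 42.3, 33.3 and 36.8 CPM against 33.2 to 41.2 with a median of 34.2, a log2 fold change of 0.17 (95% interval -0.09 to 0.44). In all 3 genes the groups overlapped, and the upper limits, 0.44 to 0.55, lay below the lower limit of Brca2, 0.60. That limit comes from the libraries in which the Brca2 rise was already known, so it is not an independent yardstick.

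Among the other recombination and Fanconi genes the largest estimates after MK801 belonged to Xrcc3, Blm and Fancd2. Xrcc3, which acts in strand exchange, held 31.6, 30.8, 35.8, 44.7 and 32.7 CPM after MK801, while the B6 controls spread from 12.2 to 38.4 CPM around a median of 26.7. Its log2 fold change was 0.50 (95% interval -0.07 to 1.07, adjusted p = 0.516, edgeR). Blm, the helicase that dissolves joined recombination intermediates, held 53.9, 62.7, 74.2, 54.9 and 41.6 CPM against 31.7 to 64.3 with a median of 40.3, a log2 fold change of 0.35 (95% interval -0.06 to 0.77). Fancd2, which is ubiquitinated together with Fanci when forks meet crosslinks, held 53.5, 61.8, 86.2, 44.7 and 46.7 CPM against 23.1 to 72.6 with a median of 47.9, a log2 fold change of 0.35 (95% interval -0.24 to 0.94). In each of these 3 genes the MK801 libraries overlapped the controls. Of the 13 recombination and Fanconi genes, Brca2 included, 12 had a positive log2 fold change, with a median of 0.18. Over all genes 7442 of 16084 did. The exception among the 13 was Rad54l, a motor protein of strand exchange, at -0.23. Besides Brca2 none of the 13 passed the test, and all are read in the same libraries, so this count of directions is not a count of independent results.

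The 27 genes of replication proper and nucleotide supply were centred on 0 after MK801: 12 had a positive and 15 a negative log2 fold change, with a median of -0.02 and a range of -0.39 to 0.32. Mcm2, a subunit of the helicase, held 232, 293, 306, 217 and 186 CPM after MK801 against 198 to 314 with a median of 234 in B6 controls, a log2 fold change of 0.05 (95% interval -0.27 to 0.37). Pcna held 345, 352, 431, 263 and 387 CPM against 280 to 587 with a median of 365, a log2 fold change of -0.12 (95% interval -0.56 to 0.32). The MK801 libraries lay inside the control range or just below it for both genes. The 13 licensing and helicase genes ran from -0.19 (Mcm6) to 0.15 (Mcm10), and the 11 clamp, polymerase and lagging-strand genes from -0.39 (Pold1, the catalytic subunit of polymerase delta) to 0.32 (Rfc4, a subunit of the clamp loader). Of the nucleotide genes, thymidylate synthase (Tyms) stood at 0.003 and the ribonucleotide reductase subunits Rrm1 and Rrm2 at 0.08 and -0.24.

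Cdt1 and Pold1 were the least precisely measured. In B6 controls Cdt1, the licensing factor, ranged from 8.97 to 74.0 CPM and Pold1 from 9.27 to 109 CPM, with the same library, B6 control 5, highest for both. That library was also the lowest B6 control for Brca2, at 32.3 CPM. Without it the log2 fold change of Brca2 after MK801 was 0.97 with an adjusted p of 0.0441 (edgeR).

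The level of Brca2 relative to the other 39 genes was set out library by library. Expressed as log2 CPM of Brca2 minus the mean log2 CPM of the others, the 5 MK801 libraries stood at 0.60, 1.34, 0.72, 0.33 and 0.80. The 7 B6 controls ranged from -0.99 to 0.19 with a median of 0.02, and the 4 C3H controls from -0.78 to 0.16. The MK801 libraries overlapped neither control group on this scale, and the mean difference from B6 controls was 0.95 on log2, against -0.10 for C3H controls. Brca2 was already known to be higher in these MK801 libraries, so this separation is a description and not further support. The libraries themselves differed widely in the other genes: in MK801 library 3, 39 of the 40 genes were above their B6 control median, in MK801 library 4 only 12 were, and in B6 controls the number ran from 2 to 35. Brca2 was higher than in every B6 control in both of those MK801 libraries.

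**Figure D3:**
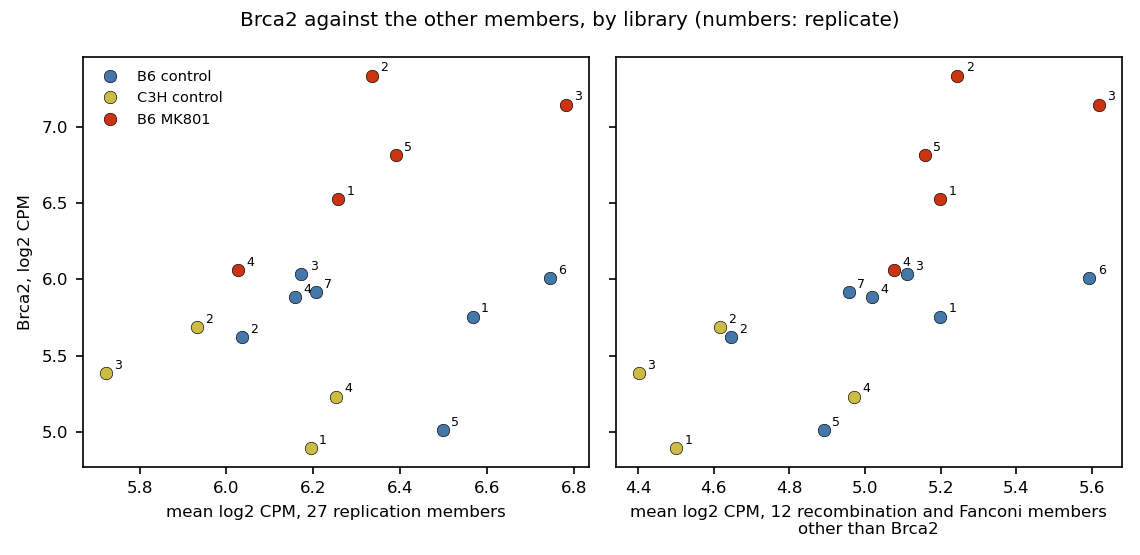
Log2 CPM of Brca2 (vertical axis) in each of the 16 libraries, by group, against the mean log2 CPM of other genes (horizontal axis). The left panel uses the 27 replication genes and the right panel the recombination and Fanconi genes other than Brca2. All MK801 points lie higher than all control points. In MK801 libraries Brca2 exceeded the plotted mean by 0.04 to 1.00 on the left and by 0.99 to 2.09 on the right.

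Within groups, Brca2 followed most of the other genes weakly and some in the opposite direction. With group means subtracted, Pearson's r between log2 CPM of Brca2 and of each other gene over the 16 libraries was positive for 32 of 39 genes, with a median of 0.22. It ran from -0.61 (Pold1) to 0.80 (Pole). Next to these were Cdt1 at -0.57 and Fancd2 at 0.68. All 39 relations use the same libraries and the same Brca2 values, so they are not independent. The relation with Pole, the catalytic subunit of the leading-strand polymerase, alone passed adjustment over the 39 (r = 0.80, permutation p = 0.00093, adjusted p = 0.0363; Spearman's rank correlation 0.79, adjusted p = 0.0737). By Spearman's rank correlation none passed. B6 control 5 and MK801 library 4 lay farthest from the median of Brca2 once group means were subtracted. Without them none of the 39 passed by either measure and the median r was 0.17, with Pole at 0.67. In the 7 B6 controls alone none passed and the median was 0.12, with Pole at 0.71.

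None of the other genes of the same pathways, listed by function, passed the test after MK801. Of 41 further replication genes none was called and the median log2 fold change was -0.06; 1 had an unadjusted p under 0.05, Atad5, which unloads the clamp, at 0.45. Of 40 further recombination and Fanconi genes none was called and the median was 0.00 (-0.0025); 2 had an unadjusted p under 0.05. These were Fancb, a core complex subunit, at 0.57 (adjusted p = 0.186, edgeR), and Gen1, a nuclease that cuts joined intermediates, at 0.85 (adjusted p = 0.289, edgeR). Of 20 end joining and mismatch repair genes none was called. The share with an unadjusted p under 0.05 was 2.44% and 5% in the first and second of these lists, beside 12% over all genes.

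Genes of mitosis and of the G1 to S transition were read in the same libraries. None of 30 mitosis genes was called after MK801 and none had an unadjusted p under 0.05, but 28 of 30 had a positive log2 fold change, with a median of 0.17. Over all genes 12% reached that p and 7442 of 16084 had a positive log2 fold change. Mki67, a proliferation antigen, held 1460, 1593, 1656, 795 and 1339 CPM after MK801 against 690 to 1503 with a median of 1016 in B6 controls, a log2 fold change of 0.34 (95% interval -0.13 to 0.81). Of 30 G1/S regulators, 1 fell: Ccnd1, encoding the G1 cyclin D1, held 22.1, 21.3, 28.6, 20.9 and 14.4 CPM against 32.4 to 51.7 with a median of 42.4. Every MK801 library lay below every B6 control, and the log2 fold change was -0.97 (95% interval -1.41 to -0.54, adjusted p = 0.0424, edgeR). Of all genes tested, 0.473% were called lower and 1.14% had every MK801 library below every B6 control. The Ccnd1 call was lost in 11 of the 16 fits that left out 1 library, with an adjusted p of up to 0.123. Over all 33 alternatives, these 16 included, it was lost in 18. The log2 fold change of Ccnd1 then ran from -1.10 to -0.66, with an adjusted p of up to 0.875 over the edgeR, limma and DESeq2 fits. Cdkn1a, which encodes the cyclin-dependent kinase inhibitor p21, held 86.4, 74.9, 77.2, 97.2 and 94.6 CPM against 40.04 to 78.4 with a median of 45.4, a log2 fold change of 0.77 (95% interval 0.39 to 1.14, adjusted p = 0.0602, edgeR). A single B6 control, the first, reached the range of the MK801 libraries.

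**Figure D4:**
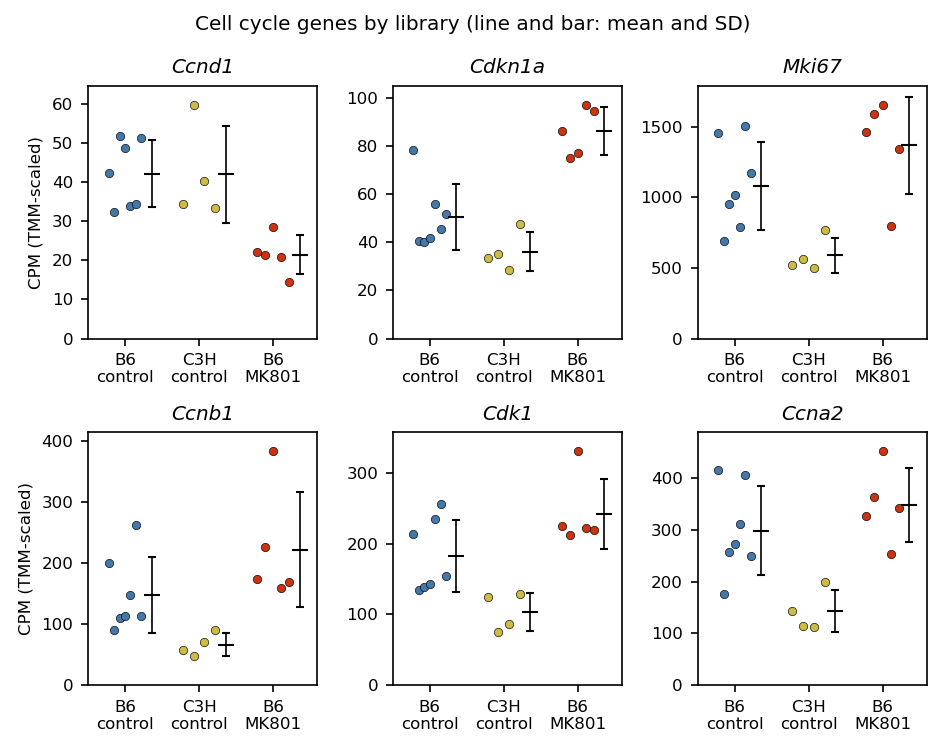
CPM of Ccnd1, Cdkn1a, Mki67, Ccnb1, Cdk1 and Ccna2 in each library (points) with group means and SDs (lines and bars), on linear axes from 0. Ccnd1 lies lower in all 5 MK801 libraries than in the 7 B6 controls, and Ccna2 has its lowest mean in the C3H controls.

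The summed levels of leukocyte and of fibroblast and mural markers were lower in the MK801 group, though no marker of these lists was called. The summed level of 19 leukocyte markers ranged from 685 to 1017 CPM after MK801, below the 1029 to 1748 CPM of B6 controls, and 15 of the 19 had an unadjusted p under 0.05, all lower. The summed level of 12 fibroblast and mural markers ranged from 437 to 720 CPM against 797 to 1530, with 9 of 12 under that p and lower. Over all genes 8.5% were lower at that p. No marker of either list was at 0 in every library of a group. Of 12 endothelial markers 10 had a negative log2 fold change and 2 had an unadjusted p under 0.05, both lower. All 14 acinar markers had a negative log2 fold change, beside 53.7% of all genes, and none reached that p. In bulk RNA, fewer cells of a type and less RNA per cell cannot be told apart. With the mean of the leukocyte list as a covariate the log2 fold change of Brca2 was 1.15 with an adjusted p of 0.875, in a fit that called no gene at all in this comparison. With the mean of the mitosis list as a covariate it was 1.01 with an adjusted p of 0.0826 (edgeR).

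The genes that flank Brca2 on chromosome 5 were described next to it. In the RefSeq order the next protein-coding gene after Brca2 is N4bp2l1, on the opposite strand so that the 3′ ends face each other, followed by N4bp2l2; Fry lies before Brca2 beyond Zar1l, which did not pass the filter. Their annotated spans do not overlap that of Brca2. N4bp2l1 held 27.1, 43.1, 16.2, 46.4 and 35.8 CPM after MK801 against 12.5 to 25.7 with a median of 15.1 in B6 controls, and 18.9 to 32.5 in C3H controls. Of the MK801 libraries 4 lay above all B6 controls and library 3 did not. The log2 fold change was 1.01 (95% interval 0.49 to 1.54, adjusted p = 0.0753, edgeR). DESeq2's Wald test, the fit with the mitosis covariate and the fit without B6 control 2 called it. N4bp2l2 stood at 0.36, Fry at 0.64 and Stard13 at 0.38. All 9 neighbours tested had a positive log2 fold change with a median of 0.38, 4 had an unadjusted p under 0.05 and none was called. Over all genes 7442 of 16084 had a positive log2 fold change, and 3.5% were higher at that p. The sources used here do not say if counting used strand, so reads past the 3′ ends of Brca2 and N4bp2l1 cannot be assigned with certainty.

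**Figure D5:**
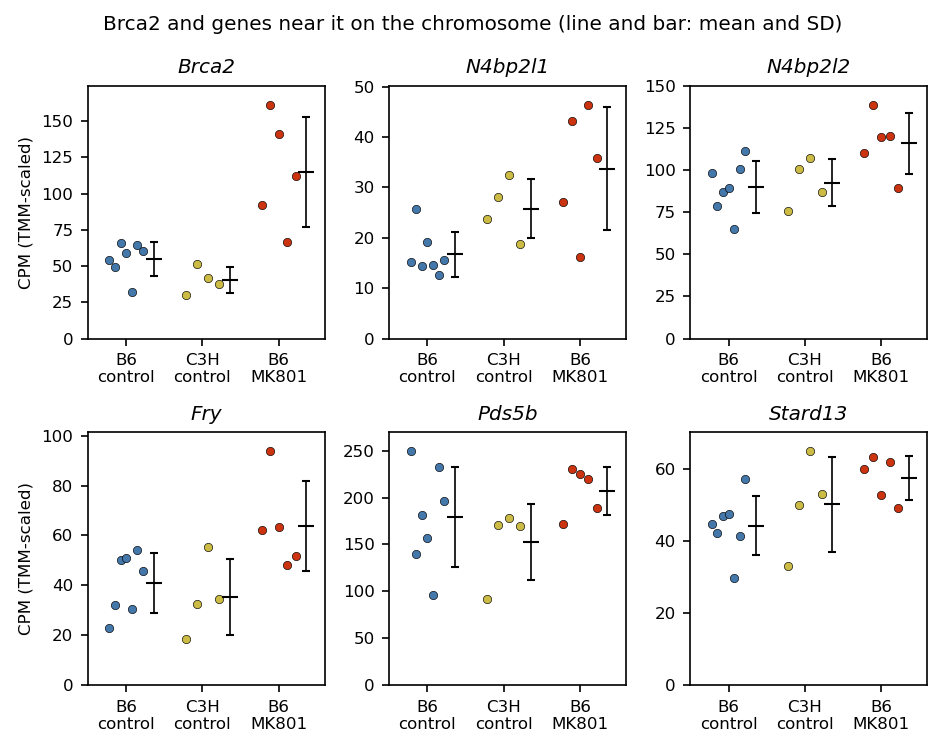
CPM of Brca2 and 5 genes near it on chromosome 5 in each library (points) with group means and SDs (lines and bars), on linear axes from 0. The MK801 and B6 control points are apart for Brca2 and overlap for the 5 others, with N4bp2l1 above all B6 controls in 4 of 5 MK801 libraries.

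In C3H tumours the same 40 genes stood lower as a group than in B6 controls, but no single gene passed the test. Of the 40, 38 had a negative log2 fold change, all but Cdt1 (0.42) and Pold1 (0.01), with a median of -0.40 beside -0.03 over all genes tested. None was called higher or lower, where 0.883% of all genes were called higher, 1.52% lower and 2.4% in either direction. An unadjusted p under 0.05 was reached by 15 of the 40, each of them lower; 8.93% of all genes were lower and 4.91% higher at that p. Of all genes, 2.37% had every C3H library below every B6 control and 1.5% every one above; none of the 40 did either. All 40 are read in the same libraries, so the number of genes is not a number of independent results.

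The smallest p belonged to Tyms, which makes thymidylate. It held 130, 101.1, 102 and 118 CPM in C3H against 129 to 213 with a median of 144 in B6 controls, a log2 fold change of -0.46 (95% interval -0.77 to -0.15, adjusted p = 0.133, edgeR). Blm held 22.7, 31.3, 26.4 and 33.4 CPM against 31.7 to 64.3 with a median of 40.3, a log2 fold change of -0.66 (95% interval -1.12 to -0.20, adjusted p = 0.149, edgeR). For both genes the groups overlapped at their edges only. Fanci, the partner of Fancd2, held 33.7, 30.5, 26.2 and 39.1 CPM against 34.8 to 86.8 with a median of 48.0, a log2 fold change of -0.65 (95% interval -1.12 to -0.17). Cdc6, the licensing factor, held 23.9, 26.2, 30.5 and 37.2 CPM against 31.9 to 84.7 with a median of 44.7, a log2 fold change of -0.73 (95% interval -1.28 to -0.17). Rrm2 had the most negative value of the 40, with 59.6, 53.8, 43.3 and 97.8 CPM against 52.8 to 259 and a median of 113, a log2 fold change of -1.01 (95% interval -1.77 to -0.24, adjusted p = 0.204, edgeR). In each of these 3 genes at least 1 C3H library lay inside the B6 control range.

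Brca2 in C3H stood at -0.45 (95% interval -0.96 to 0.05, adjusted p = 0.423, edgeR), close to the median of the 40, and Brca1 at -0.68 (95% interval -1.23 to -0.13, adjusted p = 0.236, edgeR). Palb2 stood at -0.41 and Bard1 at -0.28.

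Of 41 further replication genes none was called in C3H, with Orc6 of the origin recognition complex nearest at -1.08 (adjusted p = 0.0565). Outside the 40, Xrcc6, which encodes the Ku70 end-joining protein, fell, with 53.6, 41.0, 48.5 and 40.1 CPM against 58.6 to 114 and a median of 86.1, a log2 fold change of -0.89 (95% interval -1.29 to -0.49, adjusted p = 0.0176, edgeR). Of 20 end joining and mismatch repair genes it was the only 1 called, and the call was lost without C3H control 2, 3 or 4. Over all 33 alternatives, these fits included, the Xrcc6 call was lost in 7 and its log2 fold change ran from -1.03 to -0.72.

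Of 30 mitosis genes 7 fell in C3H: Bub1b and Ndc80 of the spindle checkpoint and kinetochore, Cdc20, the centromere genes Cenpa and Cenpe, the kinesin Kif20a and the kinase Plk1. The median of the 30 was -0.84, all 30 were negative and 25 had an unadjusted p under 0.05. Over all genes 1.52% were called lower, 53% were negative and 8.93% were lower at that p. Cenpa held 41.5, 24.6, 26.96 and 38.5 CPM against 47.0 to 96.1 with a median of 59.7, a log2 fold change of -1.10 (adjusted p = 0.0144, edgeR). Among the G1/S genes Ccna2, the S phase and mitotic cyclin A2, fell by 1.06 on the log2 scale (adjusted p = 0.0284, edgeR), lost without C3H control 1, 2 or 3. Over all 33 alternatives, these fits included, the Ccna2 call was lost in 9 and its log2 fold change ran from -1.27 to -0.17. The 7 mitosis calls became none to 11 when 1 library was left out and none when only the 2 groups compared were fitted. With the mean of the mitosis list as a covariate, the median of the 40 replication and recombination genes in C3H turned from -0.40 to 0.15. That mean itself differed by strain, at 6.05 log2 CPM in C3H against 6.82 in B6 controls. The covariate therefore takes up part of the strain difference, and the shift cannot be read apart from it. The cause was not tested. Reads of C3H mice were counted against a reference whose build name is that of the C57BL/6 genome, and the part of sequence differences in single genes was not tested.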

How the data were processed

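Per the labels' protocols, total RNA was isolated with the miRNeasy kit and polyA libraries were made with the Illumina TruSeq kit. The submitters' processing notes name RSEM 1.2.12, Bowtie 1.0.1 and the mm9 build, with no roles given. The authors deposited estimated counts per gene (23224 genes), and a normalized signal per gene (22484 genes) in which each value is the estimated count times a single factor per library. The sources used here do not say if counting used strand.

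The estimated counts, rounded to integers, were tested with edgeR 4.0.16 (R 4.3.3): TMM factors, filterByExpr, a single quasi-likelihood fit over the 3 groups, and Benjamini-Hochberg adjustment over 16084 genes with a threshold of 0.05. Standard errors were derived from the F statistic and the log2 fold change. CPM are scaled by TMM; log2 CPM used a prior count of 2. Alternatives used limma 3.58.1 and DESeq2 1.42.0. Relations with Brca2 used 100000 permutations within groups. The fit was tested on simulated data first. Of genes given a log2 change of 1 in either direction, it called 36% in the MK801 comparison and 25% in the C3H comparison. For a log2 change of 2 the shares were 77% and 80%. Most changes of 1 were thus missed, so a gene not called may still differ by that much.

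The 40 genes and all other lists were chosen with earlier results of these data known. Values in every library are given for Brca2, the 5 genes of the 40 with the smallest p in each comparison, and Brca1, Palb2, Pcna and Mcm2; up to 4 genes with the smallest p per other list and comparison could be named, except for a few that are not reported here, plus Mki67, Top2a, Ccnd1, Cdkn1a and Dlgap1. Groups of over 5 libraries are usually given by their lowest, median and highest. Of 284 list symbols 283 had a row, 4 of them under an older symbol. Promoter windows came from RefSeq on GRCm38.p6 and its gene order gave the neighbours of Brca2; no coordinates were converted.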

Additional observations from a re-analysis of the deposited data

Results flagged for a closer look

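Among the 40 genes, 14 of 120 sets of libraries (40 genes in 3 groups) held a library whose distance to its nearest neighbour was large against the range of its group. That is 11.7%, where the rule flags about 5% of sets of normally distributed values. It was applied to CPM without a log, which need not be so distributed, so 5% is not a chance rate for these data. The sets are not independent, since the same few libraries recur. B6 control 6 was the highest of its group for Cdc6 (84.7 CPM), Mcm3 (313 CPM), Mcm6 (528 CPM), Rad54l (56.3 CPM) and Fanci (86.8 CPM). B6 control 5 was the highest for Cdt1 (74.0 CPM) and Pold1 (109 CPM), and B6 control 1 for Rfc4 (61.5 CPM) and Rrm2 (259 CPM). MK801 library 3 was the highest of its group for Orc1 (13.1 CPM), Mcm10 (68.4 CPM), Gins1 (22.3 CPM) and Exo1 (47.1 CPM), and MK801 library 4 was the lowest for Mcm6 (194 CPM). Brca2 had no such library in any group.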

How the results depend on the processing

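No result changed sign while called. The number of the 40 genes called higher after MK801 was 1, Brca2, and became 0 when only the 2 groups compared were fitted, with the replicate block, with the mitosis or leukocyte list as a covariate and at a threshold of 0.01; leaving out 1 library gave 0 to 1. The log2 fold change of Brca2 was then 1.12 with only the 2 groups compared (adjusted p = 0.0677, edgeR), 1.12 with the replicate block (adjusted p = 0.1), 1.01 with the mitosis covariate, 1.15 with the leukocyte covariate and 1.06 at the threshold of 0.01; leaving out 1 library gave 0.91 to 1.15. The causes were not tested. Deviations of same-numbered libraries from their group means correlated weakly or negatively (-0.16 to 0.11 for MK801 and -0.31 to -0.00158 for C3H with B6). So few correlations cannot exclude that the numbers pair the libraries. Over all 33 alternatives the adjusted p of Brca2 ran from 0.000639 (DESeq2 Wald test) to 0.875 (edgeR, leukocyte covariate). No other gene of the 40 was called in the MK801 comparison under any alternative, and none of the 40 in C3H. The number of relations with Brca2 that passed, 1 (Pole, r = 0.80), became 0 in the 7 B6 controls alone, where r for Pole was 0.71, and 0 without the pair of libraries farthest from the median of the centred Brca2 values, where it was 0.67. With TTTCGCGC or TTTGGCGC alone, 5 of the 9 E2F matches were left.

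Counts over all genes moved more. Genes called higher after MK801 (24) were 105 by DESeq2's Wald test, 54 with the first principal component as a covariate, 7 with the 2 groups alone, 1 with the replicate block, 0 with the leukocyte covariate and 2 to 37 without 1 library. Genes called lower (76) were 536, 119, 3, 0, 0 and 2 to 165 in that order, 157 and 144 by limma on the deposited normalized values with 1 or 0.1 added, 46 without the filter, 45 with the mitosis and 49 with the acinar covariate. In C3H the 142 higher were 261 by the Wald test, 65 with the block and 39 with the mitosis covariate; the 244 lower were 533, 97 and 49, and 129 with the 2 groups alone; without 1 library they ranged over 100 to 179 and 104 to 294. At thresholds of 0.01 and 0.1 the MK801 counts were 6 and 50 higher, 2 and 255 lower, and the C3H counts 67 and 203 higher, 86 and 383 lower. The 7 mitosis genes lower in C3H were 14 by the Wald test, 3 with the leukocyte covariate, 1 with the first principal component and 0 with the block. Cdkn1a, not called after MK801, was called in 8 of its 33 alternatives.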
